A study of Mus musculus with 8 samples.

Results

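Cytochrome P450 enzymes are membrane-bound heme proteins that insert 1 atom of oxygen into lipids, steroids, vitamins and foreign compounds, with electrons that cytochrome P450 reductase or, in mitochondria, ferredoxin delivers. The CYP1 to CYP3 families mainly oxidise foreign compounds and fatty acids, the CYP4 family hydroxylates fatty acids and eicosanoids at the end of the chain, and the families with higher numbers mostly make or break down sterols, bile acids, steroid hormones, vitamin D and retinoic acid. Most members are best known from the liver, and several are also found in gut, lung and other epithelia. Their genes are classical targets of transcription factors such as the aryl hydrocarbon receptor, the PPARs and HNF4A.

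The genes described here were chosen by name: all genes of the deposited count table named Cyp followed by a number, letters and a number, with 1 such gene left out. The rule found 93 genes among 53465 in the table, and no measured value entered it. Of the 93, 17 had 10 or more counts in at least 2 libraries and were called detected, 37 had some counts but fewer than that, and 39 had 0 counts in every library. All 17 detected genes, and none of the others, were among the 14301 genes that passed the filter on low counts and were tested. Since that filter needs expression in only 1 of the groups, a gene that passes through the group where it is high is more likely to differ between groups, and counts over the 17 are given as a description beside the share of all tested genes.

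The data are 8 RNA-seq libraries from 2 mouse pancreatic ductal adenocarcinoma (PDAC) lines, B73 and B87, each grown from the primary tumor of a separate mouse of the KC-shSmad4 model. Both lines carry Ptf1a-Cre, the Rosa26 allele LSL-rtTA3-IRES-mKate2 (RIK) and, at *Col1a1*, a doxycycline (Dox)-inducible, GFP-linked *Smad4* shRNA, so that Cre acts in the pancreatic epithelium and Dox turns *Smad4* off. Cells either stayed in Dox (*Smad4* off) or were kept for 5 days without it (*Smad4* on), and were treated for 24 hours with 100 pM recombinant mouse TGFβ1 or with 2.5 µM SB505124, which blocks the kinase of the type I TGFβ receptor. Each of the 4 groups held 1 library of each line, n = 2, and each line was grown from 1 tumor. The p-values between groups rest on how far the 2 lines differ in their changes, after their constant difference is fitted. Those between the lines rest on differently treated libraries of each line. The Dox state and the *Smad4* state cannot be told apart. There was no untreated arm, so whether TGFβ1 or SB505124 moved a gene cannot be told apart either.

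The libraries held 18389235 to 23440550 counts each, and 3 counts, taken as the floor of detection, stood for 0.125 to 0.162 CPM, the counts scaled to the TMM-normalized size of the library. *Smad4* itself was at 33.7 to 35.5 CPM in the 4 *Smad4*-off libraries and at 97.4 to 117 CPM in the 4 *Smad4*-on libraries, so every library matched its label. *Smad4* off thus means a lowered and not an absent *Smad4* mRNA. All 8 ductal epithelial markers examined were detected, with a summed level of 1210 to 5570 CPM. Of these, *Epcam* had only 3 to 39 counts per library and *Cldn4* 0 to 906. Acinar markers summed to at most 1.37 CPM and leukocyte markers to at most 6.44 CPM. Endothelial markers summed to at most 26 CPM and fibroblast markers to between 4 and 647 CPM. Of 6 hepatocyte markers only *Apob* was detected, with 1998 to 7268 counts, and *Alb*, *Ttr*, *Apoa1*, *Fgb* and *Serpina1a* had at most 2 counts in any library. The P450 genes together took 0.019% to 0.0398% of all counts in a library.

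The promoters of 5 P450 genes are shown first, because these are genes whose levels under TGFβ1 lay below those under SB505124 in both *Smad4* states and whose start has a window free of annotated exons. RefSeq promoter windows (build GRCm38.p6) were found for 14 of the 17 detected genes by symbol. Of each, the 250 bases before the start are used, read on the strand of the gene. Capitals mark matches on either strand to GCGTG, the core of the AHR-ARNT element, to CAGAC, the SMAD box, and to TGANTCA, the AP-1 element, and none of these matches overlapped another.
Cyp1a1: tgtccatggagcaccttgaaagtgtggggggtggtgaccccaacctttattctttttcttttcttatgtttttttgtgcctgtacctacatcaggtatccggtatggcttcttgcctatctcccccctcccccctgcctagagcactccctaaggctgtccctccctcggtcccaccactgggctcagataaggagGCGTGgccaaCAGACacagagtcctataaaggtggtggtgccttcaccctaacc
Cyp2c65: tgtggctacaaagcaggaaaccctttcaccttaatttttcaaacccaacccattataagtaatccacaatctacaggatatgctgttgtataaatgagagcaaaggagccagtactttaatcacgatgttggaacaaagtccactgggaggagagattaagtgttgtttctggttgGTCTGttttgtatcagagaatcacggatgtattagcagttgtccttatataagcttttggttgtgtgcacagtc
Cyp3a13: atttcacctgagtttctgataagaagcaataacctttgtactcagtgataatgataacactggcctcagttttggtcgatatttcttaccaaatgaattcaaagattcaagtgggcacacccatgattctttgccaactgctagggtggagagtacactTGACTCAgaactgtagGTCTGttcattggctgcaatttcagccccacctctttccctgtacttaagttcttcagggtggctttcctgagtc
Cyp4b1: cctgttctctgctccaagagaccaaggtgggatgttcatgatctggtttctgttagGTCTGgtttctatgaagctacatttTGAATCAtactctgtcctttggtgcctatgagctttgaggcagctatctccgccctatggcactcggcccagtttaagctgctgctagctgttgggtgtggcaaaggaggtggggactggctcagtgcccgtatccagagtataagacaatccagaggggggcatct
Cyp4f14: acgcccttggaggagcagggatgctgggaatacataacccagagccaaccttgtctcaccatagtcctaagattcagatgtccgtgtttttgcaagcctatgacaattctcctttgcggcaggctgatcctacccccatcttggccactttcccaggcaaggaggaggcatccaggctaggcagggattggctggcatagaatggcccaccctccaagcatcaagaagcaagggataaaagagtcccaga
The windows lie at chr9:57697363-57697612 on the plus strand for *Cyp1a1*, chr19:39060756-39061005 on the plus strand for *Cyp2c65*, chr5:137921620-137921869 on the minus strand for *Cyp3a13*, chr4:115647724-115647971 on the minus strand for *Cyp4b1*, where the last 2 bases were dropped because they are in an exon, and chr17:32917343-32917592 on the minus strand for *Cyp4f14*, for which 4 windows are listed and the one ending at the annotated gene start was taken. The *Cyp1a1* window lies before a RefSeq start inside the deposited range of the gene, which begins at position 57687928. It held 1 match to GCGTG and 1 to CAGAC. *Cyp2c65* held 1 match to CAGAC, and *Cyp3a13* and *Cyp4b1* each held 1 match to CAGAC and 1 to TGANTCA. The *Cyp4f14* window shown held none of the 3.

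The same letters were common in promoters at large. Of all 32851 windows of 250 bases, 28.2% held GCGTG, 42.2% held CAGAC and 6.75% held TGANTCA. Among the 14 P450 genes with a window, 7 held GCGTG, 8 held CAGAC and 3 held TGANTCA in at least 1 window. The shares above are per window, not per gene, and *Cyp4f14* is among the 7 only through a window that is not shown. The sixth gene that was lower under TGFβ1 in both *Smad4* states, *Cyp2s1*, held none of the 3 in its window, which lies within an annotated first exon and is not shown. *Cyp4f16* held 1 match to GCGTG, 2 to CAGAC and 1 to TGANTCA, and was not called in any comparison. A match is a run of letters and not a measured binding site.

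Across all 8 libraries, P450 levels per length covered a wide range. Per kilobase of annotated exon, *Cyp20a1*, a P450 with no well-established substrate, had the highest mean level at 26.1 CPM per kb, followed by *Cyp1b1* at 16.1, *Cyp2j6* at 7.53, *Cyp4f16* at 6.37, *Cyp39a1* at 4.69 and *Cyp3a13* at 3.68 CPM per kb. Neighbours in this order overlapped in their ranges over the 8 libraries: *Cyp20a1* ran from 20.2 to 35.2 and *Cyp1b1* from 3.84 to 26.2 CPM per kb, and *Cyp2j6* from 2.24 to 15 and *Cyp4f16* from 4.92 to 8.99 CPM per kb. *Cyp39a1* ran from 2.97 to 5.83 and *Cyp3a13* from 0.337 to 12.8 CPM per kb. The other 11 detected genes had mean levels of 0.0918 (*Cyp2ab1*) to 3.2 (*Cyp2c65*) CPM per kb.

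**Figure D1:**
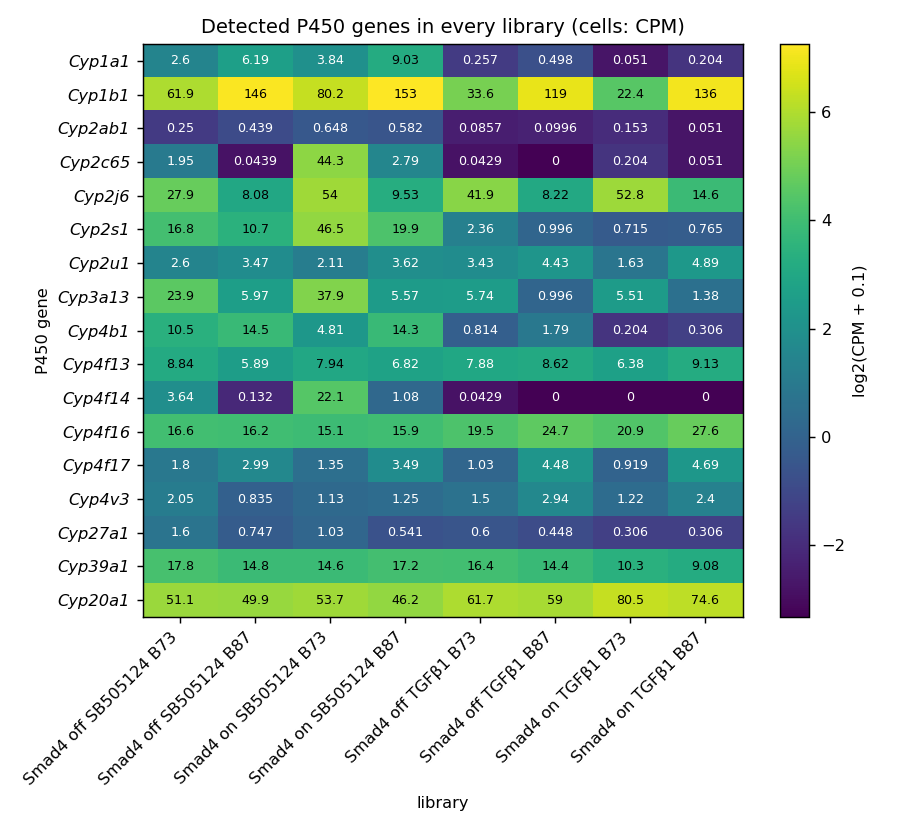
CPM of the 17 detected P450 genes (rows) in the 8 libraries (columns, grouped by *Smad4* state and treatment, line B73 before B87), printed in each cell and coloured as log2(CPM + 0.1). *Cyp20a1* stayed between 46.2 and 80.5 CPM, while *Cyp1a1*, *Cyp2c65*, *Cyp2s1*, *Cyp4b1* and *Cyp4f14* were dark in the 4 TGFβ1 libraries on the right.

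By role, 2 of 3 CYP1 genes, 5 of 48 CYP2 genes, 1 of 7 CYP3 genes, 6 of 17 CYP4 genes, 2 of 6 cholesterol and bile acid genes and *Cyp20a1* were detected. None of the 3 vitamin D genes, the 6 steroid hormone genes or the 2 retinoic acid genes was detected. *Cyp27b1*, which makes the active form of vitamin D, had 1 to 7 counts per library and *Cyp26a1*, which breaks down retinoic acid, at most 2. Most CYP2 and CYP3 genes had no counts in any library: 29 CYP2 genes, among them *Cyp2e1* and all 4 *Cyp2a* genes, and the 6 *Cyp3a* genes other than *Cyp3a13*. A total of 0 among 18389235 counts in the smallest library allows up to 0.162 CPM there.

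Neighbouring genes of 1 cluster differed in whether they were detected. *Cyp1a1* had up to 217 counts in a library and *Cyp1a2*, which lies next to it on chromosome 9, had at most 1. Of 15 *Cyp2c* genes only *Cyp2c65* was detected, 9 had 0 counts everywhere, and the next, *Cyp2c66*, had 13 and 2 counts in the *Smad4*-on SB505124 libraries of B73 and B87, 1 in the *Smad4*-off SB505124 library of B73 and 0 elsewhere. Of the 75-base stretches in *Cyp2c65* transcripts, 11.4% also occur in transcripts of other genes, chiefly *Cyp2c66*, and whether reads that match both were counted is not given in the sources used here. The share was 10.1% for *Cyp4f16*, with *Cyp4f37* (at most 1 count in a library) as its chief match, and at most 6.4% for the other 15 detected genes. The 9 *Cyp4f* genes included 4 detected ones, *Cyp4f13*, *Cyp4f14*, *Cyp4f16* and *Cyp4f17*, all on chromosome 17.

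Comparing TGFβ1 with SB505124 asks how P450 levels depend on TGFβ signaling, once with *Smad4* on and once with it off. In *Smad4*-on cells, 7 of the 17 detected P450 genes were called lower under TGFβ1 and 0 were called higher, a call being an adjusted p under 0.05 with more than a 2-fold change in edgeR's quasi-likelihood test with the line as a term. Of all genes tested, 8.31% were called lower and 5.62% higher in this comparison. In *Smad4*-off cells, 6 of the 17 were called lower and 0 higher, against 2.82% and 3.11% of all genes. At an unadjusted p under 0.05, 12 of the 17 passed in *Smad4*-on cells and 10 in *Smad4*-off cells, in either direction, against 43.8% and 28.7% of all genes. DESeq2 with the line as a term called 6 lower in each *Smad4* state and 0 higher, against 7.17% of all genes called lower with *Smad4* on and 2.51% with *Smad4* off. The median fitted log2 fold change of the 17 was -0.93 with *Smad4* on and -0.58 with *Smad4* off, against -0.02 over all genes tested in both. The 6 genes called in *Smad4*-off cells were all among the 7 called in *Smad4*-on cells, which describes 2 comparisons of different libraries of the same 2 lines.

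*Cyp1a1* oxidises polycyclic aromatic hydrocarbons and is the best-known target of the aryl hydrocarbon receptor. Under SB505124 it had 52 counts in B73 and 141 in B87 with *Smad4* off, and 71 and 217 with *Smad4* on. Under TGFβ1 it had 6 and 10 counts with *Smad4* off and 1 and 4 with *Smad4* on. All 4 TGFβ1 libraries lay below all 4 SB505124 libraries. The fitted log2 fold change was -5.6 ± 0.34 (SE, n = 2 lines, edgeR adjusted p = 0.000114) in *Smad4*-on cells and -3.49 ± 0.29 (adjusted p = 0.00105) in *Smad4*-off cells. In summed counts the *Smad4*-on ratio was 53.1-fold, with an exact 95% interval of 22.5 to 165 that covers counting error only.

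*Cyp2s1*, a P450 found mainly in epithelia outside the liver, showed a like pattern at higher counts. It was at 16.8 CPM in B73 and 10.7 CPM in B87 under SB505124 with *Smad4* off, and at 46.5 and 19.9 CPM with *Smad4* on. Under TGFβ1 it was at 2.36 and 0.996 CPM with *Smad4* off and at 0.715 and 0.765 CPM with *Smad4* on. The groups did not overlap, and the fitted log2 fold change was -5.39 ± 0.32 (adjusted p = 0.000109) in *Smad4*-on and -3.08 ± 0.28 (adjusted p = 0.00147) in *Smad4*-off cells. The annotated non-coding gene *Gm26707* overlaps 5.27% of the *Cyp2s1* exon bases on the other strand and had 1 to 4 counts per library.

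*Cyp4b1* hydroxylates fatty acids and activates some lung toxins. It was at 10.5 CPM in B73 and 14.5 CPM in B87 under SB505124 with *Smad4* off, and at 4.81 and 14.3 CPM with *Smad4* on. Under TGFβ1 it was at 0.814 and 1.79 CPM with *Smad4* off and at 0.204 and 0.306 CPM with *Smad4* on, which are 4 and 6 counts. Again no TGFβ1 library reached an SB505124 library. The fitted log2 fold change was -5.11 ± 0.41 (adjusted p = 0.000278) in *Smad4*-on and -3.35 ± 0.32 (adjusted p = 0.00163) in *Smad4*-off cells.

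*Cyp3a13* belongs to the CYP3A family of drug- and steroid-oxidising enzymes and is the only one of the 7 in the table that was detected. It was also called between the lines. In B73 it was at 23.9 and 37.9 CPM under SB505124 with *Smad4* off and on, and at 5.74 and 5.51 CPM under TGFβ1. In B87 it was at 5.97 and 5.57 CPM under SB505124 and at 0.996 and 1.38 CPM under TGFβ1. Within each line both TGFβ1 libraries lay below both SB505124 libraries, while the TGFβ1 libraries of B73 were close to the SB505124 libraries of B87. The fitted log2 fold change was -2.48 ± 0.24 (adjusted p = 0.000586) in *Smad4*-on and -2.27 ± 0.24 (adjusted p = 0.00245) in *Smad4*-off cells, and without the line as a term these calls were lost in edgeR (adjusted p = 0.235 and 0.479) and in DESeq2 (adjusted p = 0.0683 and 0.28).

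**Figure D2:**
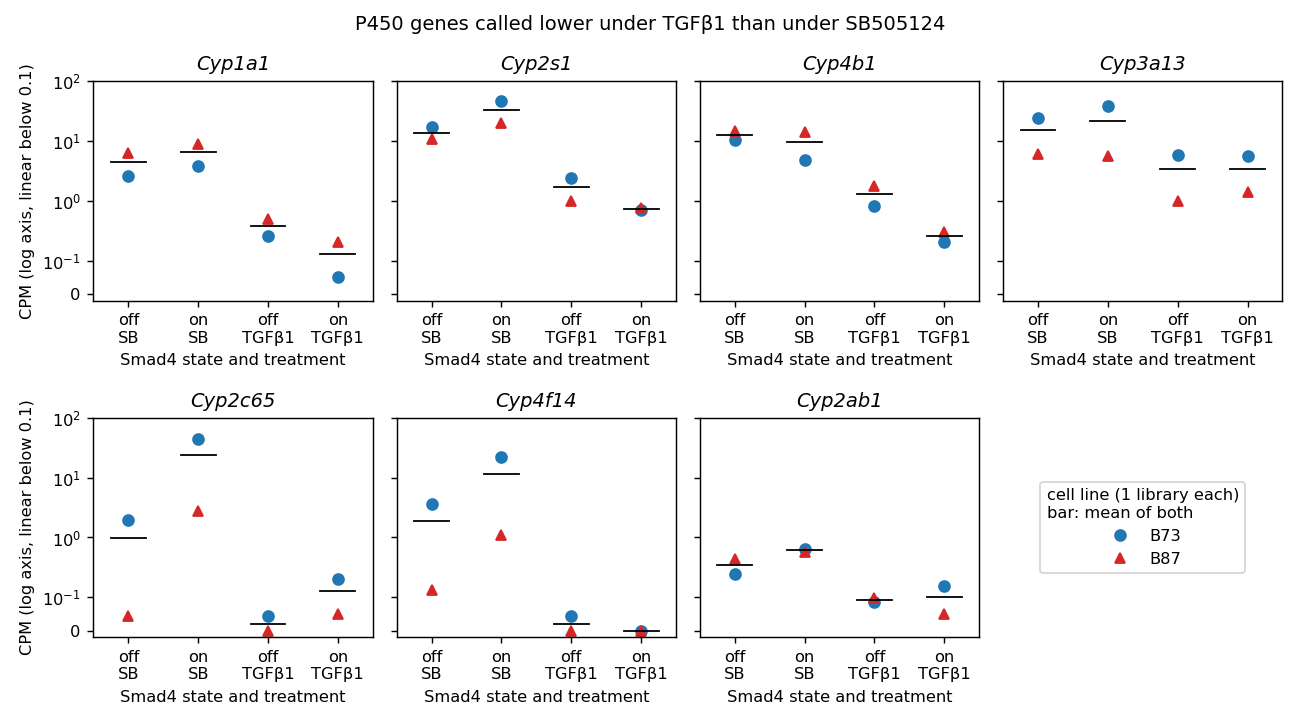
CPM (log axis, linear below 0.1) of the 7 P450 genes called lower under TGFβ1 than under SB505124 in at least 1 *Smad4* state, by *Smad4* state and treatment, with 1 point per library and a bar at the mean of both lines. For *Cyp1a1*, *Cyp2s1*, *Cyp4b1* and *Cyp2ab1* the 4 TGFβ1 libraries sit below the 4 SB505124 libraries, and for *Cyp2c65* and *Cyp4f14* the B87 *Smad4*-off libraries are near 0 under both treatments.

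*Cyp2c65* and *Cyp4f14* were nearly absent under TGFβ1 in both lines. *Cyp2c65*, a gut-expressed member of the CYP2C family that oxidises arachidonic acid, had 39 counts in B73 and 1 in B87 under SB505124 with *Smad4* off, and 820 and 67 with *Smad4* on. Under TGFβ1 it had 1 and 0 counts with *Smad4* off and 4 and 1 with *Smad4* on. The ratio of summed counts was 163-fold (exact 95% interval 69.8 to 505) in *Smad4*-on and 40.6-fold (6.88 to 1640) in *Smad4*-off cells, with edgeR adjusted p = 0.000109 and 0.00575. The difference with *Smad4* off came from B73 alone, since B87 had at most 1 count there under either treatment.

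*Cyp4f14* hydroxylates leukotriene B4, which ends the activity of that inflammatory lipid. It had 73 counts in B73 and 3 in B87 under SB505124 with *Smad4* off, and 409 and 26 with *Smad4* on. Under TGFβ1 it had 1 and 0 counts with *Smad4* off and 0 in both lines with *Smad4* on. Against a floor of 3 counts per library, the mean of both lines was at least 75.7-fold lower under TGFβ1 in *Smad4*-on cells (edgeR adjusted p = 0.000186). That bound is not one for each line, since the mean under SB505124 came mostly from B73, at 22.1 CPM against 1.08 CPM in B87. In *Smad4*-off cells the ratio of summed counts was 77.1-fold (exact 95% interval 13.4 to 3080, adjusted p = 0.00256). As for *Cyp2c65*, the *Smad4*-off ratio rested on B73, since B87 had 3 counts or fewer.

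Those *Smad4*-off calls depended on single libraries and on the line term. Without the B73 *Smad4*-off TGFβ1 library the adjusted p was 0.176 for *Cyp4f14* and 0.3 for *Cyp2c65*, and without the B73 *Smad4*-off SB505124 library it was 0.262 for *Cyp2c65*. Without the line as a term, edgeR called 4 of the 7 in *Smad4*-on cells, leaving out *Cyp2c65* (adjusted p = 0.0697), *Cyp4f14* (0.091) and *Cyp3a13* (0.235), and 0 of the 6 in *Smad4*-off cells. For the *Smad4*-off comparison in that fit, 5 of all 17 detected genes had an unadjusted p under 0.05, against 17.6% of all genes. DESeq2 without the line called 5 with *Smad4* on and 4 with *Smad4* off. Over all genes the calls dropped as well, from 1993 and 848 of 14301 with the line to 1035 and 168 in edgeR and 1363 and 479 in DESeq2 without it.

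*Cyp2ab1* was the seventh gene called lower in *Smad4*-on cells and had few counts. It had 5 counts in B73 and 10 in B87 under SB505124 with *Smad4* off, 12 and 14 with *Smad4* on, and 1 to 3 in the TGFβ1 libraries. The fitted log2 fold change was -2.52 ± 0.64 (adjusted p = 0.023) in *Smad4*-on cells and the ratio of summed counts was 5.99-fold (exact 95% interval 2.08 to 23.6). The call was lost in DESeq2 (adjusted p = 0.141) and when any of the 4 libraries compared, the *Smad4*-on libraries of either line under either treatment, was left out (adjusted p = 0.054 to 0.173). In *Smad4*-off cells it was not called, at -1.85 ± 0.69 (adjusted p = 0.134).

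**Figure D3:**
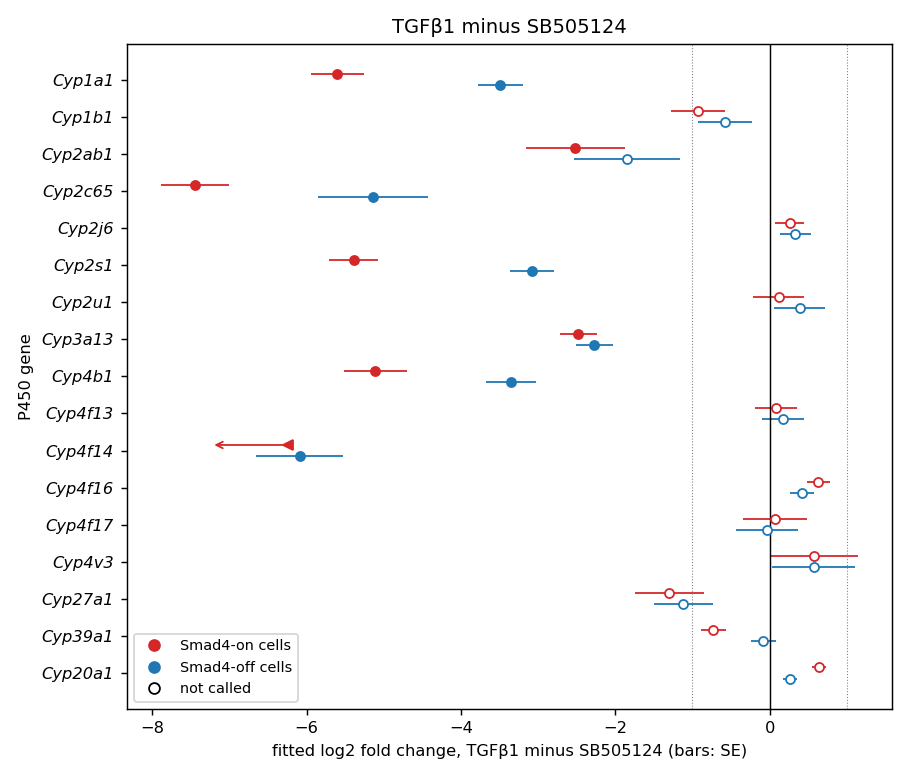
Fitted log2 fold change (TGFβ1 minus SB505124) of the 17 detected P450 genes in *Smad4*-on and *Smad4*-off cells, with bars of 1 SE, filled points for called genes and dotted lines at 2-fold. The arrow for *Cyp4f14* starts at the bound of at least 75.7-fold lower in *Smad4*-on cells for the mean of both lines. No P450 gene was called to the right of 0.

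The other 10 detected P450 genes were not called in either *Smad4* state. *Cyp20a1* was at 51.1 and 49.9 CPM (B73 and B87) under SB505124 with *Smad4* off, 53.7 and 46.2 with *Smad4* on, 61.7 and 59 under TGFβ1 with *Smad4* off and 80.5 and 74.6 with *Smad4* on. Its *Smad4*-on difference was 0.64 ± 0.09 on the log2 scale (adjusted p = 0.0021), past the p threshold and under 2-fold. *Cyp4f16*, of the leukotriene-hydroxylating CYP4F family, was at 15.1 to 16.6 CPM in the 4 SB505124 libraries and at 19.5 and 24.7 CPM under TGFβ1 with *Smad4* off and 20.9 and 27.6 CPM with *Smad4* on, for B73 and B87. Its *Smad4*-on difference was 0.63 ± 0.15 (adjusted p = 0.0163). Both genes thus lay higher under TGFβ1 in *Smad4*-on cells by less than 2-fold, and neither passed in *Smad4*-off cells (adjusted p = 0.104 and 0.109).

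*Cyp39a1*, an oxysterol hydroxylase of bile acid synthesis, went the other way in *Smad4*-on cells. Under SB505124 it was at 17.8 and 14.8 CPM (B73 and B87) with *Smad4* off and 14.6 and 17.2 with *Smad4* on, and under TGFβ1 at 16.4 and 14.4 with *Smad4* off and 10.3 and 9.08 with *Smad4* on. The *Smad4*-on TGFβ1 libraries were the lowest of the 8, and the difference was -0.73 ± 0.16 (adjusted p = 0.0146) in *Smad4*-on and -0.08 ± 0.16 (adjusted p = 0.782) in *Smad4*-off cells. *Cyp27a1*, the mitochondrial sterol hydroxylase, had 6 to 32 counts per library and a *Smad4*-on difference of -1.3 ± 0.45 (adjusted p = 0.0631).

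*Cyp1b1* hydroxylates estradiol and aromatic procarcinogens. Under SB505124 it was at 61.9 and 146 CPM (B73 and B87) with *Smad4* off and 80.2 and 153 with *Smad4* on, and under TGFβ1 at 33.6 and 119 with *Smad4* off and 22.4 and 136 with *Smad4* on. The B73 libraries under TGFβ1 were its 2 lowest. The *Smad4*-on difference was -0.93 ± 0.35 (adjusted p = 0.0836), made up of -1.84 in B73 and -0.17 in B87 on a log2 CPM scale, and without the B87 *Smad4*-on TGFβ1 library it was -1.65 and was called (adjusted p = 0.00905). *Cyp2j6*, an arachidonic acid epoxygenase, was at 27.9 and 8.08 CPM (B73 and B87) under SB505124 with *Smad4* off, 54 and 9.53 with *Smad4* on, 41.9 and 8.22 under TGFβ1 with *Smad4* off and 52.8 and 14.6 with *Smad4* on. Its TGFβ1 differences were 0.26 ± 0.19 (adjusted p = 0.337) and 0.33 ± 0.2 (adjusted p = 0.314) in *Smad4*-on and *Smad4*-off cells.

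The remaining genes differed little between the treatments against their errors. *Cyp2u1*, a fatty acid hydroxylase, had 32 to 96 counts per library, *Cyp4f13* 125 to 184, *Cyp4f17* 18 to 92 and *Cyp4v3*, the mouse counterpart of a fatty acid hydroxylase of the human eye, 19 to 59. Their fitted log2 differences lay between -0.03 (*Cyp4f17*) and 0.58 (*Cyp4v3*) over both *Smad4* states, with adjusted p of 0.465 or more. The gene *4930534D22Rik* overlaps 10.5% of the *Cyp2u1* exon bases on the other strand and had 1 to 6 counts per library. *Cyp4f13*, *Cyp4f16* and *Cyp4f17* lie with *Cyp4f14* between positions 32506462 and 32947402 of chromosome 17 (GRCm38), and none of them was called between the treatments.

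Restoring *Smad4* asks which P450 levels depend on *Smad4* when the receptor is active or blocked, in the same 8 libraries as the treatment comparisons. Under SB505124, 2 of the 17 detected genes, *Cyp2c65* and *Cyp4f14*, were called higher with *Smad4* on and 0 were called lower, against 0.636% of all tested genes called higher and 0.455% lower. Under TGFβ1, 0 were called higher and 1, *Cyp4b1*, was called lower, against 1.31% and 1.8% of all genes. At an unadjusted p under 0.05, 5 of the 17 passed under SB505124 and 6 under TGFβ1, in either direction, against 12.6% and 23.7% of all genes. DESeq2 with the line called 3 higher and 0 lower under SB505124 and 0 higher and 1 lower under TGFβ1, and over all genes it called 210 and 504 of 14301 in either direction, against 156 and 446 in edgeR. The median log2 fold change of the 17 was 0.01 under SB505124 and -0.1 under TGFβ1, and 0 and -0.01 over all genes.

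*Cyp2c65* rose with *Smad4* under SB505124, from 39 to 820 counts in B73 and from 1 to 67 in B87, with a fitted log2 fold change of 4.63 ± 0.33 (adjusted p = 0.00316). *Cyp4f14* rose from 73 to 409 counts in B73 and from 3 to 26 in B87, by 2.67 ± 0.28 (adjusted p = 0.0139). Both lines moved the same way in both genes, and the *Smad4*-on library of B87 was above the *Smad4*-off library of B73 for *Cyp2c65* and below it for *Cyp4f14*. Without the line as a term neither was called (edgeR adjusted p = 0.889 and 1). The *Cyp2c65* call was lost without the B73 *Smad4*-on SB505124 library (adjusted p = 0.0783), and the *Cyp4f14* call was lost without any of the 4 SB505124 libraries (adjusted p = 0.0516 to 0.309).

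*Cyp4b1* fell with *Smad4* under TGFβ1, from 19 to 4 counts in B73 and from 36 to 6 in B87, by 2.3 ± 0.48 on the log2 scale (adjusted p = 0.0378). The call was lost without any of the 4 TGFβ1 libraries (adjusted p = 0.118 to 0.208) and without the line as a term (edgeR adjusted p = 0.264). Under SB505124 its difference was -0.55 ± 0.27 (adjusted p = 0.473). *Cyp39a1* and *Cyp20a1* came next under TGFβ1, at -0.67 ± 0.16 (adjusted p = 0.0566) and 0.36 ± 0.09 (adjusted p = 0.0543).

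*Cyp2s1* lay on opposite sides of 0 under the 2 treatments. Its *Smad4* difference was 1.2 ± 0.23 (adjusted p = 0.0682) under SB505124, with the *Smad4*-on library higher in both lines, and -1.12 ± 0.37 (adjusted p = 0.13) under TGFβ1, with the *Smad4*-on library lower in both. Neither was called by edgeR. DESeq2 with the line called the SB505124 one (adjusted p = 0.0038), as did edgeR when either *Smad4*-on TGFβ1 library was left out (adjusted p = 0.0352 and 0.0366).

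**Figure D4:**
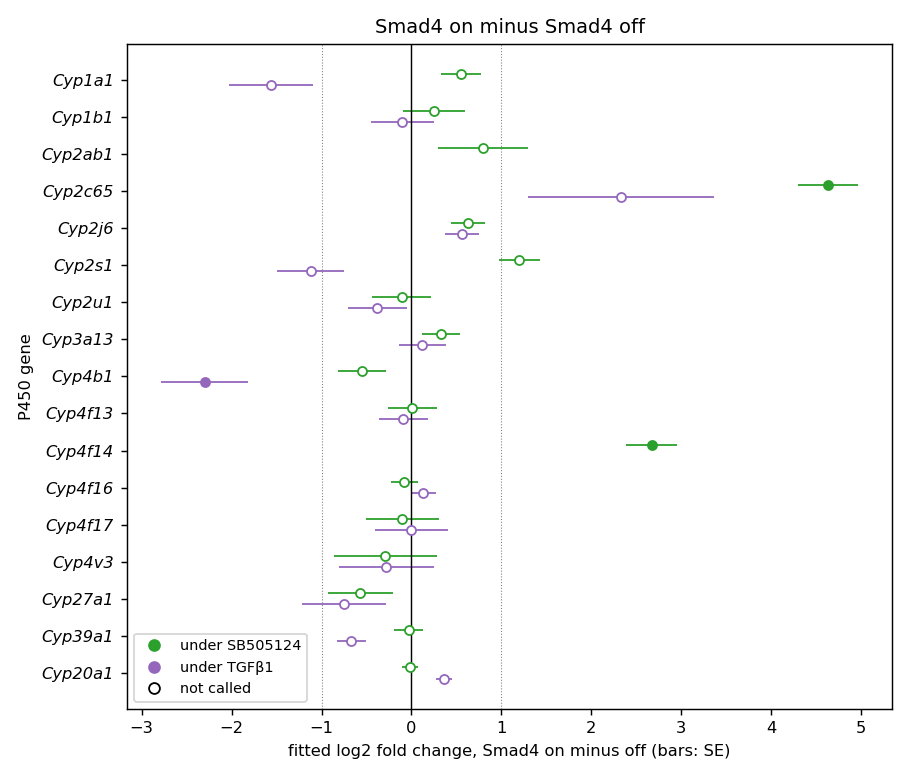
Fitted log2 fold change (*Smad4* on minus off) of the detected P450 genes under SB505124 and TGFβ1, with bars of 1 SE, filled points for called genes and dotted lines at 2-fold. *Cyp2c65* and *Cyp4f14* are filled to the right under SB505124 and *Cyp4b1* to the left under TGFβ1, and no TGFβ1 point is drawn for genes with at most 3 counts in every TGFβ1 library.

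The difference between both *Smad4* effects, equal to the difference between both TGFβ1 effects, was tested as an interaction. None of the 17 genes was called by edgeR, against 0.189% of all genes called in either direction, and 5 had an unadjusted p under 0.05, against 10.4% of all genes. *Cyp2s1* had the smallest of these, with an interaction of -2.32 ± 0.44 on the log2 scale (adjusted p = 0.14), and it was the 1 member that DESeq2 with the line called (adjusted p = 0.0019), against 0.951% of all genes. *Cyp1a1* followed at -2.11 ± 0.52 (adjusted p = 0.232) and *Cyp4b1* at -1.76 ± 0.56 (adjusted p = 0.319). The other two were *Cyp20a1*, in the opposite direction at 0.38 ± 0.12 (adjusted p = 0.319), and *Cyp39a1* at -0.64 ± 0.23 (adjusted p = 0.365). That *Cyp2ab1* was called in 1 *Smad4* state only is no sign of a difference between the states.

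The lines themselves differed in P450 levels. Averaged over the 4 conditions, 3 of the 17 were called higher in B87 than in B73 and 4 lower, against 3.87% and 4.5% of all genes. *Cyp1b1* was at 139 ± 14.6 CPM (SD, n = 4 libraries, 1 per condition) in B87 and 49.5 ± 26.4 CPM in B73, a log2 difference of 1.63 ± 0.25 (SE, adjusted p = 0.00557). The SD thus also holds the differences between conditions, and each side of the comparison is 1 line. *Cyp4f17*, at 3.91 ± 0.809 against 1.27 ± 0.394 CPM, and *Cyp1a1* were higher in B87 by 1.62 ± 0.29 and 1.23 ± 0.2 on the log2 scale (adjusted p = 0.0105 and 0.00642).

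*Cyp2j6* was at 44.2 ± 12.1 CPM in B73 and 10.1 ± 3.06 CPM in B87, lower in B87 by a log2 difference of -2.12 ± 0.14 (adjusted p = 0.000182), with all 4 B87 libraries below all 4 B73 libraries. *Cyp3a13*, *Cyp2c65* and *Cyp4f14* were lower in B87 too, at -2.33 ± 0.17, -4.04 ± 0.31 and -4.42 ± 0.29 (adjusted p = 0.000281, 0.000318 and 0.000376). The last 2 values rest on the SB505124 libraries, since these genes had at most 4 counts in any TGFβ1 library. *Cyp4b1* and *Cyp2s1* passed the p threshold without exceeding 2-fold (1 ± 0.23 and -0.89 ± 0.2, adjusted p = 0.027 and 0.0215). Leaving out either *Smad4*-off SB505124 library made both calls, at 1.33 and at -1.02 or -1.03, and leaving out either *Smad4*-on TGFβ1 library made the *Cyp4b1* call, at 1.02.

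Other marker levels also differed between the lines. Of the 8 ductal markers, 5 (*Cdh1*, *Krt18*, *Muc1*, *Cldn4* and *Krt8*) were lower in B87, and of 4 tested fibroblast markers *Col1a1*, *Pdgfrb* and *Pdgfra* were higher and *Col1a2* lower. Fibroblast markers summed to 4 to 8.88 CPM in B73 and 43.9 to 647 CPM in B87, and *Dcn* and *Lum* had at most 3 counts. The acinar marker Cela1 and the endothelial marker Kdr were higher in B87. Their part in the P450 differences was not tested. Whether the responses of the lines differed was tested as well. For the TGFβ1 response none of the 17 was called by edgeR, as was 0% of all genes, 4 had an unadjusted p under 0.05, against 8.38% of all genes, and DESeq2 called *Cyp1b1* (1.14 on the log2 scale, adjusted p = 0.028), against 0.175% of all genes. For the *Smad4* response none was called by edgeR or DESeq2 and 0 had an unadjusted p under 0.05, against 0.392% of all genes called by edgeR and 9.85% with an unadjusted p under 0.05.

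**Figure D5:**
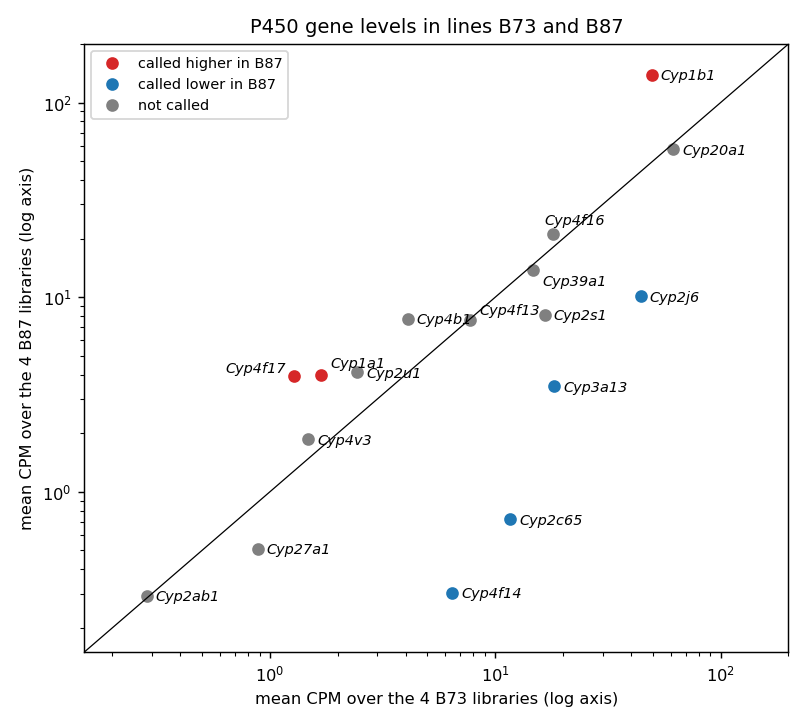
Mean CPM of the 17 detected P450 genes over the 4 libraries of B73 (horizontal) and of B87 (vertical), both on log axes, with the line of equal levels and colours for genes called higher or lower in B87. *Cyp1b1*, *Cyp4f17* and *Cyp1a1* lie above the line and *Cyp2j6*, *Cyp3a13*, *Cyp2c65* and *Cyp4f14* below it.

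Genes that work with P450 enzymes were read from lists chosen with earlier results of these data known. All 9 genes of electron supply were tested. *Por*, the reductase of the P450 enzymes of the endoplasmic reticulum, was not called (-0.04 ± 0.14 in *Smad4*-on cells, adjusted p = 0.847), and 1 of the 9, *Cyb5a*, which encodes cytochrome b5, was lower under TGFβ1 in both *Smad4* states. *Cyb5a* was at 204 and 197 CPM (B73 and B87) under SB505124 with *Smad4* off, 224 and 184 with *Smad4* on, 93.1 and 89.4 under TGFβ1 with *Smad4* off and 57 and 52.7 with *Smad4* on. It fell by 1.89 ± 0.09 (adjusted p = 5.48e-05) in *Smad4*-on and by 1.13 ± 0.09 (adjusted p = 0.000888) in *Smad4*-off cells. Of 12 tested heme genes, 1 was called, the biliverdin reductase *Blvrb*, which was lower under TGFβ1 in *Smad4*-on cells (-1.25 ± 0.26, adjusted p = 0.0104).

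Of 22 receptors and regulators of P450 genes, 16 were tested. In *Smad4*-on cells 2 were higher under TGFβ1, *Ppard* and *Vdr*, and 8 were lower: *Pparg*, *Hnf4a*, *Rxra*, *Nr1h4*, *Nr1h3*, *Ahrr*, *Cebpa* and *Cebpb*, against 5.62% and 8.31% of all genes tested. *Pparg*, the receptor of fatty acid ligands, fell by 3.24 ± 0.17 (adjusted p = 8.71e-05) and was at 93.2 to 152 CPM in B73 and 51.4 to 91.9 CPM in B87 under SB505124, against 16.3 to 32.9 and 9.79 to 12.7 CPM under TGFβ1. *Ppard* rose by 1.68 ± 0.14 (adjusted p = 0.000292) and *Rxra* fell by 1.13 ± 0.12 (adjusted p = 0.000729). In *Smad4*-off cells *Vdr* was higher and *Pparg* lower under TGFβ1. Between the *Smad4* states, *Ppard* was higher with *Smad4* on than off under TGFβ1. *Hnf4a* was called for a *Smad4* response that differed between the lines. The receptor gene *Ahr* itself was at 16.6 to 28.7 CPM and was not called in either *Smad4* state (-0.13 ± 0.16 and -0.16 ± 0.16, adjusted p = 0.591 and 0.575). *Tiparp*, also on the list, was higher under TGFβ1 in *Smad4*-on cells by less than 2-fold (0.87 ± 0.13, adjusted p = 0.00298).

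Many of the listed genes of the steps that follow P450 oxidation were lower under TGFβ1 too. As the list was chosen with earlier results known, its counts and medians describe the list only. Of 13 tested epoxide hydrolases, transferases and related enzymes, 11 were lower under TGFβ1 in *Smad4*-on cells: *Ephx1*, *Nqo1*, *Sult1a1*, *Sult1c2*, *Sult1d1*, *Sult2b1*, *Ugt1a6a*, *Ugt1a6b*, *Ugt1a7c*, *Ugt2b34* and *Ugt2b35*, against 8.31% of all genes. In *Smad4*-off cells 8 of these, without *Sult1a1*, *Sult1d1* and *Sult2b1*, were lower, against 2.82% of all genes, and the list's median log2 fold change was -3.31 with *Smad4* on and -2.11 with *Smad4* off, against -0.02 over all genes. *Ugt2b34*, a glucuronosyltransferase, was at 38.7 and 128 CPM in B73 and 7.82 and 19.7 CPM in B87 under SB505124 with *Smad4* off and on, and at 0.643 CPM or less under TGFβ1 (adjusted p = 5.48e-05 in *Smad4*-on cells). *Sult1c2*, a sulfotransferase, was at 8.84 to 14.6 CPM under SB505124 and at 0.399 CPM or less under TGFβ1 (adjusted p = 1e-04), and *Ugt1a7c* fell by 3.31 ± 0.34 (adjusted p = 0.000662). Between the *Smad4* states, *Ephx2* was lower with *Smad4* on than off under TGFβ1, and *Ugt2b34* was higher with *Smad4* on than off under SB505124. In B87, *Nqo1* was higher and *Ugt2b34*, *Ugt2b35*, *Sult1d1* and *Ugt1a7c* were lower. *Ugt1a6a*, *Ugt1a6b* and *Ugt1a7c* share exons in 1 locus, so reads may be split among them. The *Sult1d1* call under TGFβ1 rested on B73, since B87 had at most 2 counts in any library.

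Of 3 P450 genes with names outside the pattern, *Cyp51*, the sterol demethylase of cholesterol synthesis, and *Tbxas1*, the thromboxane synthase, were tested. *Tbxas1* was called higher under TGFβ1 in *Smad4*-on cells (2.98 ± 0.81, adjusted p = 0.0299), at 0.408 and 0.817 CPM against 0 and 0.162 CPM. *Cyp51* was at 79.8 to 200 CPM and was not called in any comparison. Markers of other cell types moved with the treatment in part. Among fibroblast markers *Col1a1*, the locus of the shRNA cassette, was higher under TGFβ1 and with *Smad4* on, with marker sums of 4 to 152 CPM under SB505124 and 6.43 to 647 CPM under TGFβ1. Among endothelial markers *Cdh5* and, with *Smad4* off, Kdr were higher under TGFβ1, with sums of 0.756 to 5.14 CPM under SB505124 and 3.32 to 26 CPM under TGFβ1, while *Pecam1* had at most 5 counts and *Emcn* 0. Kdr was also lower with *Smad4* on under TGFβ1. Of the ductal markers *Krt19* and, with *Smad4* on, *Cdh1* were lower and *Cldn4* higher under TGFβ1, with sums of 1680 to 5570 CPM under SB505124 and 1210 to 5370 CPM under TGFβ1. The part of these shifts in the P450 differences was not tested.

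A few undetected P450 genes had counts on 1 side only, and with so few counts they are given as values. *Cyp2b10*, a target of the xenobiotic receptor CAR, had 13 counts in the B73 and 4 in the B87 *Smad4*-on SB505124 library and 0 in the other 6. *Cyp21a1*, a steroid hydroxylase, had 5 and 12 counts in the B73 TGFβ1 libraries with *Smad4* off and on, 2 and 1 in those of B87, and 0 in the 4 SB505124 libraries. With no filter on low counts, *Cyp2b10* and *Cyp2c66* were called lower and *Cyp21a1* higher under TGFβ1 in *Smad4*-on cells (adjusted p = 0.0233, 0.0325 and 0.0405). In that fit 9 of 54 P450 genes were called lower and 1 higher, against 4.93% and 3.37% of all 27770 genes. These 3 genes were picked for having counts on 1 side, so their calls add no support.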

How the data were processed

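The 8 libraries were grouped from the labels by *Smad4* state and treatment. Per the labels and the study's methods, stranded poly(A) libraries were sequenced as 75-bp single-end reads, checked with FastQC 0.11.5, trimmed with Trimmomatic 0.36, aligned with STAR 2.5.3a to GRCm38/mm10 and counted per gene with featureCounts 1.6.3. The authors deposited these raw counts in 1 table. Strand and multiple-mapping settings of the counting are not given in the sources used here.

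From the counts, edgeR 4.0.16 (R 4.3.3; filterByExpr by group, TMM, quasi-likelihood F-test, group plus cell line, all 8 libraries) tested 8 comparisons over 14301 genes with Benjamini-Hochberg adjustment. The study named DESeq2 with no covariate, which is an alternative here (DESeq2 1.42.0), beside fits with other size factors, filters and libraries left out. CPM used TMM library sizes, and log2 CPM per line a prior count of 2. Exon lengths, shared 75-base stretches and overlaps came from GENCODE M21, and all 93 genes overlapped their deposited positions. On simulated counts with 200 of 14301 genes changed by 2 on the log2 scale, 81.5% were recovered for *Smad4* under TGFβ1 and 87.5% for TGFβ1 in *Smad4*-on cells, and 3.55% and 5.91% of the calls were false. These counts were drawn from the fitted model itself, with no difference in response between the lines. The shares thus do not measure errors among the real calls. Same-line libraries deviated together (r = 0.642 to 0.774 over 6 pairs of groups), so the line pairs them. Every detected gene is named, with per-library values for those called in the first 5 comparisons and the 6 with the highest level per length. From the other lists, every called gene is named and up to 3 called genes per list get values, apart from counts given as a limit. The genes and lists were chosen with earlier results of these data known, and 1 allele of the lines and 1 gene of the lists are not reported here.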

Additional observations from a re-analysis of the deposited data

How the results depend on the processing

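The replicate block is the cell line. Without the line as a replicate block, edgeR called 0 P450 genes for *Smad4* under TGFβ1, 0 for *Smad4* under SB505124, 4 for TGFβ1 in *Smad4*-on cells and 0 for TGFβ1 in *Smad4*-off cells, against 1, 2, 7 and 6 with it, and DESeq2 without the block called 0, 0, 5 and 4. Over all 14301 genes edgeR without the block called 36, 2, 1035 and 168, against 446, 156, 1993 and 848 with it, and DESeq2 without the block called 261, 97, 1363 and 479. DESeq2 with the block called 1 gene for the interaction (*Cyp2s1*) and 1 for the line difference in TGFβ1 response (*Cyp1b1*), against 0 each, and 3 for *Smad4* under SB505124, where over all genes it called 136, 25 and 210, against 27, 0 and 156 in edgeR. With no filter on low counts 2 genes were called for *Smad4* under TGFβ1 (*Cyp2s1* besides *Cyp4b1*), 3 for *Smad4* under SB505124, 1 for the interaction (*Cyp2s1*) and 1 for the TGFβ1 response by line (*Cyp1b1*), and of all 27770 genes then tested 783, 403, 284 and 80 were called. Requiring 10 counts in every library kept 11 of the 17 genes in the test, and then 0, 0, 2 and 2 were called in the first 4 comparisons and 4 between lines, while of all 11848 genes then tested 297, 77, 1293, 519 and 488 were called. With libraries left out in turn, 0 to 1 genes were called for *Smad4* under TGFβ1 and 0 to 3 for *Smad4* under SB505124, and of all genes 156 to 453 and 46 to 161. The calls of *Cyp1a1*, *Cyp2s1* and *Cyp4b1* for TGFβ1 in *Smad4*-on cells were kept in each alternative in which they were tested. No called log2 fold change reversed its sign under these alternatives. Depth limits genes with a few counts per library, where a fold change is known only within the intervals given.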
